A study of Mus musculus with 9 samples.

Results

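Mitochondrial RNA tags are the sequenced RNA fragments that the deposited genomic tag lists of 9 HITS-CLIP libraries place on the mitochondrial chromosome, on either strand. There were 1270 such tags among 321854 genomic tags. In HITS-CLIP, proteins are crosslinked by ultraviolet light to RNA they contact, 1 protein is precipitated, and the short pieces of RNA held by it are read as tags. The proteins were FMRP, whose loss causes fragile X syndrome, and the neuronal Hu proteins, which also sit on brain polyribosomes.

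All libraries came from polyribosomes of FVB mouse brain, from cortex and cerebellum cleared of white matter, with littermates pooled and cycloheximide in the buffers. Before the gradient, tissue was lysed with the detergent NP-40 and the homogenate was cleared by a pair of spins. FMRP was taken with mixed monoclonal antibodies (7G1-1 and 2F5) at P14, P15 and P25 and with the polyclonal antibody ab17722 at P14 and P25, after dissociation in 1% SDS and with sequencing on 454. The same polyclonal antibody was used at P11 and P13 after 2% SDS with sequencing on Illumina, and part of each of these lysates went to a human anti-Hu antiserum. P11 to P25 are postnatal days 11 to 25. Fmr1-null littermates were run in parallel in most experiments per the series text, and no such library was analysed here, so the background of the precipitation without FMRP was not measured. Each library is 1 pool, and the replicates of a group differ in age, so a p-value over libraries reflects how far these pools spread, which mixes age with replicate error.

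The mitochondrial chromosome is transcribed from both strands into long precursors. It encodes a small and a large ribosomal RNA (mt-Rnr1 and mt-Rnr2), tRNAs, and a few subunits of the respiratory chain and of ATP synthase. The tRNAs lie between the other genes and are cut out of the precursor at both ends, which releases the neighbouring RNAs. These RNAs are made and translated inside the organelle by its own ribosomes, apart from the cytoplasmic ribosomes that carry nuclear mRNAs.

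Genomic tags numbered 7439 to 12153 on 454 and 43593 to 98832 on Illumina. The shortest tag was 15 nt in each 454 library and 28 nt in each Illumina library. Among marker genes in the Illumina transcript lists, 6 of 6 neuronal, 5 of 5 astrocyte and 5 of 5 oligodendrocyte genes had tags. Microglial markers had tags on 1 of 3 genes (Csf1r), with Cx3cr1 and C1qa at 0, and the 3 genes of liver, heart and pancreas (Alb, Myh6 and Ins1) were at 0. Summed tags of FMRP and Hu were 276 and 712 for neurons, 87 and 8 for astrocytes, and 114 and 931 for oligodendrocytes, and the part of cell type in the results on mitochondrial tags was not tested.

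The mitochondrial share of genomic tags was highest in the Illumina FMRP library of P13. It was 1.27% there (867 of 68178 tags; 95% Wilson interval 1.19 to 1.36%), and 0.298% (130 tags; 0.251 to 0.354%) in the FMRP library of P11. Hu libraries of the same lysates had 0.197% (195 tags; 0.172 to 0.227%) at P13 and 0.0338% (20 tags; 0.0219 to 0.0523%) at P11. The 454 libraries held 58 mitochondrial tags in all. Shares with the monoclonal antibodies were 0.0134% (1 tag; 0.00237 to 0.0761%) at P14, 0.0916% (10 tags; 0.0498 to 0.169%) at P15 and 0.0823% (10 tags; 0.0447 to 0.151%) at P25. With the polyclonal antibody they were 0.0549% (6 tags; 0.0252 to 0.120%) at P14 and 0.290% (31 tags; 0.204 to 0.411%) at P25. The P25 polyclonal library thus stood above the other 454 libraries, whose intervals overlap each other. Wilson intervals cover counting error only.

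**Figure D1:**
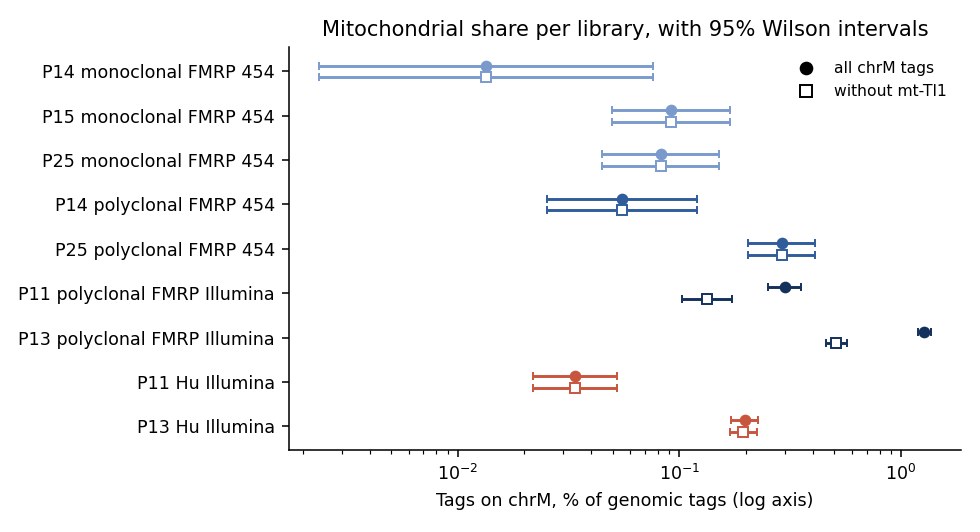
Share of genomic tags on the mitochondrial chromosome in each of the 9 libraries (log axis, %), with 95% Wilson intervals. Filled circles are all mitochondrial tags and open squares leave out the leucine tRNA mt-Tl1: the FMRP Illumina libraries drop from 0.298% to 0.133% at P11 and from 1.27% to 0.511% at P13, while the 454 and P11 Hu libraries stay in place.

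Within each lysate, FMRP had a larger mitochondrial share than Hu. The ratio of shares was 8.81 in the P11 lysate (exact counting interval 5.48 to 14.9) and 6.45 in the P13 lysate (5.51 to 7.57). Fisher's exact test, which compares 2 libraries and not the proteins, gave 1.68e-28 and 9.16e-164 after Benjamini-Hochberg adjustment over 33 such comparisons. Over libraries, the means were 0.785% ± 0.688 for FMRP and 0.116% ± 0.116 for Hu (SD, n = 2 each), and the groups did not overlap. An exact two-sided permutation test over libraries, which did not keep the lysates paired, gave p = 0.333, the smallest that 2 against 2 libraries allow. A 10 kb window of chromosome 17, the one with most tags on that chromosome, was also richer in FMRP tags, by 11 in the P11 lysate (9.45 to 12.9) and by 13.9 in the P13 lysate (12.2 to 15.9).

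Both proteins had more mitochondrial tags per genomic tag at P13 than at P11. The ratio of P13 to P11 was 4.26 for FMRP (3.54 to 5.17) and 5.83 for Hu (3.67 to 9.76), with exact counting intervals. There is 1 lysate per age, so age and lysate cannot be told apart.

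A model over all genomic rows set the mitochondrial total beside nuclear windows of 1 kb. With edgeR's quasi-likelihood test, the log2 difference of FMRP over Hu was 3.66 (SE 1.66), with an unadjusted p of 0.0272 and an adjusted p of 0.145, so the total was not called. In that model 52 of 537 rows (9.68%) were called higher in FMRP and 0 (0%) higher in Hu; 119 rows had an unadjusted p under 0.05, and DESeq2 called 101 higher and 60 lower. With the lysate as a replicate block, which pairs the FMRP and Hu library of each lysate, the total was 3.23 (adjusted p = 0.424) and 0 rows were called in either direction. The split of calls also changed with the scaling of the libraries. It was 55 higher and 13 lower with DESeq2 size factors and 111 and 82 with library totals, where the total itself was called at 2.76 (adjusted p = 0.00115). The median over all rows was 0.04 with TMM, -0.80 with DESeq2 size factors and -0.35 with library totals.

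The mitochondrial tags of FMRP held a larger share of tRNA than those of Hu, and most of that gap lay in 1 tRNA, mt-Tl1. tRNA made up 64.6% of the mitochondrial tags of FMRP at P11 (84 of 130) and 67.7% at P13 (587 of 867), against 20% (4 of 20) and 11.3% (22 of 195) with Hu. Ribosomal RNA made up 30.8% (40 tags) and 29.4% (255) with FMRP, and 40% (8) and 70.8% (138) with Hu. Coding genes made up 3.85% (5 tags) and 2.19% (19) with FMRP, and 30% (6) and 16.9% (33) with Hu. The tRNA share differed between the libraries of each lysate, with adjusted Fisher's exact p of 6.18e-04 at P11 and 8.08e-49 at P13 over 12 comparisons of composition. The coding share differed as well (0.00121 and 3.67e-13). The ribosomal RNA share passed the test at P13 (1.21e-25) and did not at P11 (0.534).

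With mt-Tl1 left out of the tags counted, the classes were closer, except ribosomal RNA at P11. Ribosomal RNA was then 73.7% with FMRP and 71.9% with Hu at P13 (adjusted Fisher's exact p = 0.822 over 6 comparisons), and 69.0% and 40% at P11 (0.0487). tRNA was 19.1% and 9.90% at P13 (0.0138) and 20.7% and 20% at P11 (1). Coding genes were 5.49% and 17.2% at P13 (1.49e-04) and 8.62% and 30% at P11 (0.0487). The coding share thus stayed lower with FMRP in both lysates, while the P13 difference in ribosomal RNA share was no longer called. At P11 the ribosomal RNA share, lower with FMRP when mt-Tl1 was counted, was higher with FMRP without it and then passed the test.

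**Figure D2:**
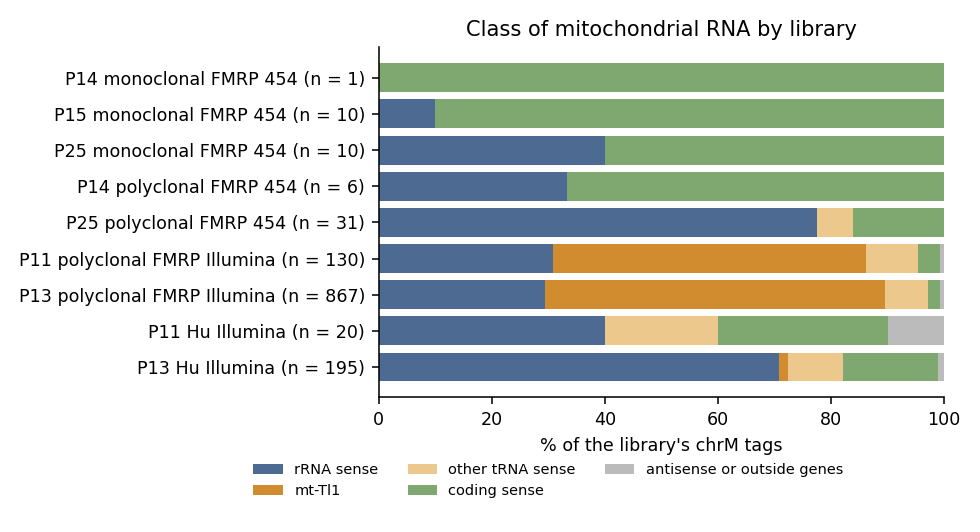
Percent of each library's mitochondrial tags on ribosomal RNA, on mt-Tl1, on other tRNAs and on coding genes, all in the sense direction, and antisense or outside genes, with the number of tags (n) beside each library. mt-Tl1 takes 55.4% of the P11 FMRP and 60.1% of the P13 FMRP Illumina tags, 1.54% of the P13 Hu tags and none of the other libraries' tags.

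On 454 the few mitochondrial tags fell mostly on coding genes, except in the P25 polyclonal library. Coding genes held 1 of 1 tag in the P14 monoclonal, 9 of 10 in the P15 monoclonal, 6 of 10 in the P25 monoclonal and 4 of 6 in the P14 polyclonal library. In the P25 polyclonal library ribosomal RNA held 24 of 31 tags (77.4%), coding genes 5 and tRNA 2.

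The plus strand, which in this assembly reads as both ribosomal RNAs, most tRNAs and every coding gene but mt-Nd6, carried nearly all tags. On Illumina it held 126 of 130 (96.9%; 92.4 to 98.8%) and 841 of 867 (97.0%; 95.6 to 97.9%) FMRP tags, and 18 of 20 (90%; 69.9 to 97.2%) and 189 of 195 (96.9%; 93.5 to 98.6%) Hu tags, with Wilson intervals. On 454 the single minus-strand tag lay in the P25 polyclonal library, on the proline tRNA gene mt-Tp. The share of plus-strand tags did not pass the test between FMRP and Hu in either lysate (adjusted Fisher's exact p = 0.243 and 1).

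Tags were assigned to the gene and strand that hold their midpoint. Of 37 mitochondrial genes, 20 had a tag in any library: both ribosomal RNAs, 10 of 22 tRNAs and 8 of 13 coding genes. Per 100 nt of gene length, the pooled FMRP Illumina tags came to 44.7 on tRNA, 11.6 on ribosomal RNA and 0.210 on coding genes. The pooled Hu tags came to 1.73, 5.75 and 0.342 per 100 nt in the same order. The tRNAs other than mt-Tl1 came to 5.47 with FMRP and 1.61 with Hu, below ribosomal RNA in both. Taken as classes, both kinds of structural RNA were thus more densely tagged than coding genes under either protein. The lengths include 5 coding genes and 12 tRNAs with no tag. The sources used here do not say how reads that also match nuclear copies were placed, which limits these densities. With Hu only 3 of 22 tRNAs had a tag, and 17 of the 26 tags were on mt-Tm and 6 on mt-Tv. The Hu density of tRNA therefore does not describe most tRNAs. With FMRP, mt-Tl1 alone placed tRNA above ribosomal RNA.

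**Figure D3:**
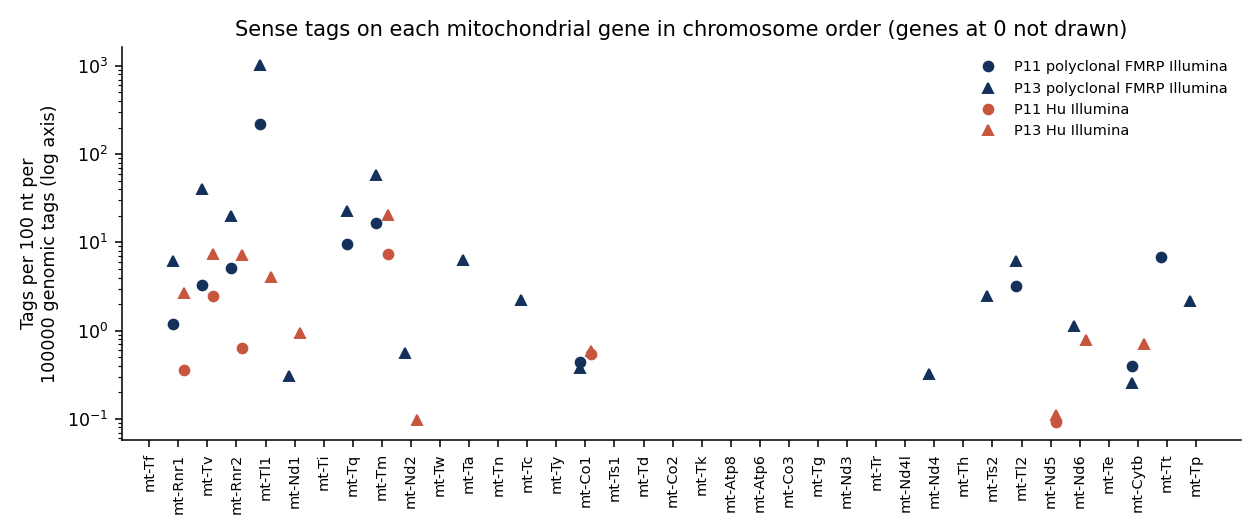
Sense tags per 100 nt and per 100000 genomic tags (log axis) on each of the 37 mitochondrial genes in chromosome order, for the 4 Illumina libraries; genes at 0 are not drawn. mt-Tl1 under FMRP stands above every other gene, and FMRP (blue) lies above Hu (red) at mt-Rnr1, mt-Tv, mt-Rnr2 and mt-Tm in both lysates.

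The large ribosomal RNA, mt-Rnr2, forms the core of the large subunit of the mitochondrial ribosome. It had 35 and 215 tags with FMRP (P11 and P13), 6 and 113 with Hu, and 9 on 454 (0, 2, 1, 2 and 4 in the P14 monoclonal, P14 polyclonal, P15, P25 monoclonal and P25 polyclonal libraries). FMRP was higher than Hu within each lysate, by 7.91 (3.29 to 23.0) at P11 and 2.76 (2.19 to 3.50) at P13. The difference was not called across libraries: the log2 difference was 2.53 (SE 1.84; edgeR adjusted p = 0.454), and it was -0.32 when the P11 Hu library was left out.

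The small ribosomal RNA, mt-Rnr1, had 5 and 40 tags with FMRP, 2 and 25 with Hu, and 22 on 454. The within-lysate ratios were 3.39 (0.555 to 35.6; adjusted Fisher's exact p = 0.205) and 2.32 (1.37 to 3.99; 0.00158). Across libraries the log2 difference was 2.17 (SE 1.88; edgeR adjusted p = 0.550), which turned to -0.66 without the P13 FMRP library and -0.62 without the P11 Hu library. For ribosomal RNA as a class, the ratios were 6.78 (3.13 to 16.8) and 2.68 (2.17 to 3.32), and the edgeR difference was 2.46 (SE 1.78; adjusted p = 0.447).

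Along mt-Rnr2 the most tagged stretches were not the same under the 2 proteins. In bases counted from the start of the gene, bases 751 to 800 held 8 and 49 FMRP tags (22.8% of the 250) and 0 and 2 Hu tags, and 5 of the 9 tags on 454. Bases 1101 to 1150 held 0 and 5 FMRP tags and 0 and 31 Hu tags (26.1% of 119), and bases 1151 to 1200 held 3 and 4 against 2 and 17. The end of the gene, from base 1551, was tagged under both proteins, with 10 and 69 FMRP tags (31.6%) and 2 and 19 Hu tags (17.6%). These stretches were picked for their tag counts, so no test is given, and the Hu peak rests on the P13 library.

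**Figure D4:**
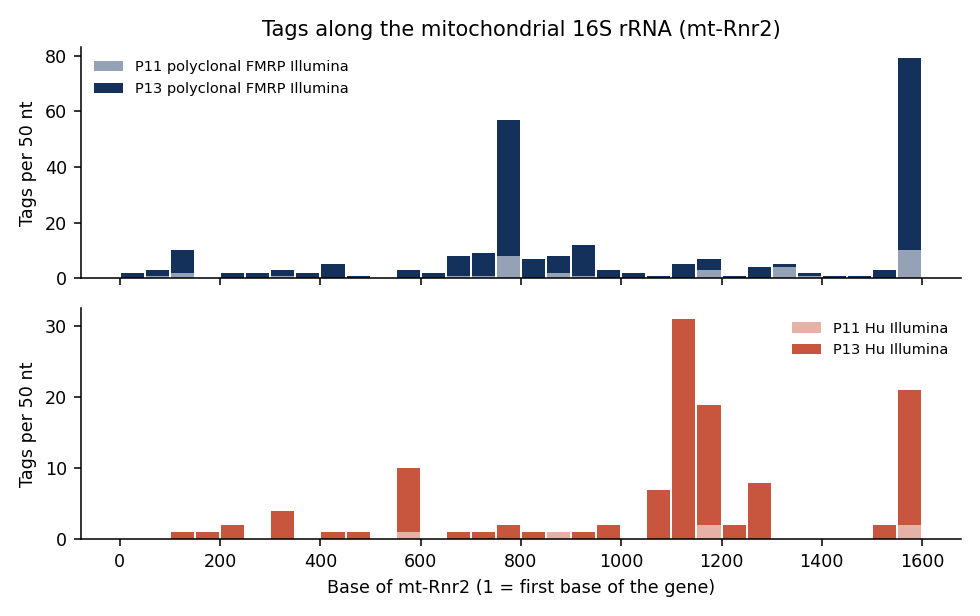
Tags per 50 nt along mt-Rnr2, by distance from the first base of the gene, with the P11 (light) and P13 (dark) libraries stacked, for FMRP (top) and Hu (bottom). FMRP peaks at bases 751 to 800 (57 tags) and at the end of the gene (79 tags), and Hu at bases 1101 to 1150 (31 tags).

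Many tags at the end of mt-Rnr2 ran over the boundary with mt-Tl1, the next gene. On this junction 94 tags crossed, 10 and 65 with FMRP, 2 and 17 with Hu and 0 on 454. Crossing tags reached a median of 6 bases into the tRNA (1 to 47). A further 16 tags crossed from the valine tRNA mt-Tv into mt-Rnr2, by 1 to 3 bases, and 7 crossed from mt-Tl1 into mt-Nd1, by 1 to 2 bases.

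On mt-Rnr1, 454 and Illumina tags lay in different stretches. Bases 251 to 300 held 18 of the 20 tags of the P25 polyclonal 454 library and 1 of the P25 monoclonal library, while FMRP and Hu on Illumina had 1 tag each there. These 18 tags share a 3′ end within 2 neighbouring bases (16 at chrM position 367 and 2 at 366, mm9). Hu tags on mt-Rnr1 were most frequent at bases 851 to 900, with 1 and 7 of 27, where FMRP on Illumina had 0 and 6 of 45.

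The leucine tRNA mt-Tl1 held more tags than all other mitochondrial genes of the FMRP Illumina libraries together. It is the tRNA for the UUR leucine codons, and changes in the human counterpart are a known cause of mitochondrial encephalomyopathy. It had 72 tags with FMRP at P11 (55.4% of the mitochondrial tags; 0.165% of genomic tags) and 521 at P13 (60.1%; 0.764%). Hu had 0 and 3 tags. None of the 5 libraries on 454 had one, and 0 of 52133 genomic tags allows a share of up to 0.00575%, below both FMRP Illumina shares. Protocol, platform, age and the merging of tags with equal bounds change together between those FMRP libraries and cannot be told apart.

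In the P11 lysate the FMRP share of mt-Tl1 was 32.5 times that of a floor of 3 counts in the Hu library. The exact counting interval of the ratio of FMRP to Hu began at 25.8. In the P13 lysate the ratio was 252 (exact counting interval 85.7 to 1225; adjusted Fisher's exact p = 9.67e-196). Only mt-Tl1's FMRP libraries reached the count that the filter on low counts asks for, so its call across libraries is a description and adds no support. The log2 difference was 8.88 (SE 2.29), with an edgeR adjusted p of 0.0352, and it was 9.0 (adjusted p = 0.0323) with the lysate as a replicate block. In this fit 52 of 539 rows (9.65%) were called higher in FMRP, which fell to 1 row under the block, and mt-Tl1 was in both sets. Of the mitochondrial genes, mt-Rnr1, mt-Rnr2 and mt-Tl1 passed that filter. The call was lost without the P11 Hu library (6.10; adjusted p = 0.195), without the P13 Hu library (11.9; 0.424), with no filter on low counts (7.91; 0.841) and with 1 tag per 5′ end (4.19; 0.0501).

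Tags on mt-Tl1 lay inside the tRNA. Of 593 FMRP Illumina tags, 586 (98.8%) were wholly within the 75 nt gene, with a median span of 48 nt. Their 5′ ends collected at a few bases: 111 (18.7%) at base 30 (chrM position 2705, mm9, plus strand), 107 (18.0%) at base 18 (2693), 60 (10.1%) at base 1 (2676) and 50 (8.43%) at base 3 (2678). Bases 18, 30 and 1 led in both libraries, with 23, 11 and 7 tags at P11 and 84, 100 and 53 at P13. Of the 50 tags at base 3, 49 came from P13. At the other side, 364 tags (61.4%) ended in the last 6 bases, 183 of them (30.9% of all) at base 73, and 112 tags covered the tRNA from its first 3 to its last 6 bases. The 3 Hu tags began at bases 21, 35 and 36.

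**Figure D5:**
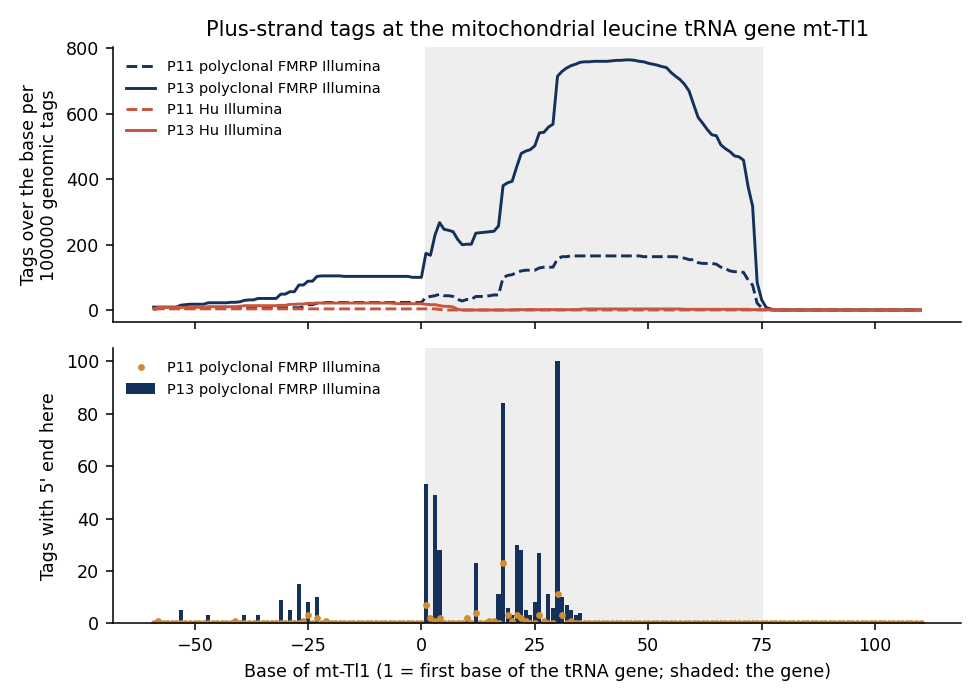
Top: tags over each base of mt-Tl1 and its flanks per 100000 genomic tags in the 4 Illumina libraries. Bottom: number of tags whose 5′ end lies at each base in the FMRP libraries (bars P13, dots P11). FMRP depth steps up at bases 1, 18 and 30 and drops at the end of the shaded gene, while both Hu lines stay near 0 inside it.

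The mt-Tl1 tags of the FMRP Illumina libraries had 195 distinct pairs of start and end and 208 distinct values of the 5-base code carried in the read name. Tags with the same start, end and code did not occur among the mitochondrial tags of any Illumina library. Such tags may have been merged before deposit, which was not tested, so their absence does not show that the tags are separate molecules. Counted as distinct pairs of start and end, mt-Tl1 had 44 and 182 with FMRP against 0 and 3 with Hu. Counted as distinct 5′ ends, which the length of the tRNA limits, it had 19 and 39 against 0 and 3. Among all mitochondrial tags, 528 of 867 P13 FMRP tags shared both bounds with another tag, in 121 sets of up to 48.

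Without mt-Tl1, the mitochondrial share was still higher with FMRP than with Hu of the same lysate. The ratio was 3.93 at P11 (2.33 to 6.90; adjusted Fisher's exact p = 3.15e-08) and 2.61 at P13 (2.18 to 3.13; 2.47e-27). Across libraries the edgeR log2 difference without mt-Tl1 was 2.36 (adjusted p = 0.436), so it was not called. The shares of the 2 groups then overlapped, with 0.133% in the P11 FMRP and 0.194% in the P13 Hu library. These libraries are of different lysates, and the exact permutation test (p = 0.667) did not keep the lysates paired.

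The methionine tRNA mt-Tm, which serves both initiation and elongation in mitochondria, was the tRNA with most Hu tags. It had 5 and 27 tags with FMRP, 3 and 14 with Hu, and 1 in the P25 polyclonal 454 library. The ratios were 2.26 (0.440 to 14.6; adjusted Fisher's exact p = 0.363) and 2.80 (1.42 to 5.77; 0.00222). Both proteins showed the same leading 5′ end, base 4 of the tRNA (chrM position 3848), with 14 of 32 FMRP and 8 of 17 Hu tags.

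The valine tRNA mt-Tv, which in some mammals is also built into the mitochondrial ribosome, had 1 and 19 tags with FMRP and 1 and 5 with Hu. At P13 the ratio was 5.51 (1.99 to 18.9; adjusted Fisher's exact p = 3.83e-04). Of its tags, 12 of 20 FMRP and 4 of 6 Hu tags ended 1 to 3 bases past the gene.

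The glutamine tRNA mt-Tq is read from the minus strand and had 3 and 11 tags with FMRP and 0 and 0 with Hu. At P13 the FMRP share was 5.32 times that of a floor of 3 counts in the Hu library, and the exact counting interval began at 3.64. The adjusted Fisher's exact p was 1.02e-04 there, and at P11 both libraries were at or under the floor. The other 6 tRNAs with tags had 1 to 4 tags each over the 9 libraries, none of them with Hu: mt-Tl2 (4), mt-Ta (3), mt-Tt (2), mt-Tp (2), mt-Tc (1) and mt-Ts2 (1). The 12 tRNAs with no tag were mt-Tf, mt-Ti, mt-Tw, mt-Tn, mt-Ty, mt-Ts1, mt-Td, mt-Tk, mt-Tg, mt-Tr, mt-Th and mt-Te.

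As a class, tRNA had 84 and 587 FMRP tags and 4 and 22 Hu tags, a ratio of 28.5 (10.7 to 107) at P11 and 38.7 (25.3 to 62.2) at P13. The edgeR log2 difference was 6.05 (SE 1.95; adjusted p = 0.0340), in a fit where 54 of 539 rows (10%) were called for FMRP and 0 rows for Hu. With the lysate as a replicate block it was 5.39 (adjusted p = 0.287), and 0 rows were called. Leaving out the P11 Hu or the P13 Hu library gave 3.46 (adjusted p = 0.251) and 7.20 (0.553). The tRNAs other than mt-Tl1 had 12 and 66 FMRP tags and 4 and 19 Hu tags, with ratios of 4.07 (1.23 to 17.3; adjusted Fisher's exact p = 0.0165) and 5.04 (2.99 to 8.88; 2.02e-11).

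Coding genes had few tags under either protein. They had 5 and 19 with FMRP and 6 and 33 with Hu, ratios of 1.13 (0.273 to 4.44; adjusted Fisher's exact p = 1) and 0.835 (0.448 to 1.51; 0.637). The edgeR log2 difference was 0.58 (SE 1.72; adjusted p = 0.821), and it was -0.57 with DESeq2 size factors and -0.15 with library totals. A difference in either direction was not detectable at this depth, and the intervals hold ratios of FMRP to Hu from 0.273 to 4.44 at P11 and from 0.448 to 1.51 at P13.

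Of the subunits, mt-Co1, the catalytic subunit of cytochrome c oxidase, had 3 and 4 tags with FMRP, 5 and 9 with Hu, and 0, 2, 4, 1 and 3 on 454 (P14 monoclonal, P14 polyclonal, P15, P25 monoclonal and P25 polyclonal). The mt-Co1 ratios were 0.814 (0.126 to 4.18) and 0.644 (0.145 to 2.31). mt-Cytb, the cytochrome b of complex III, had 2 and 2 with FMRP, 0 and 8 with Hu and 1, 1, 1, 0 and 2 on 454, with a P13 ratio of 0.362 (0.0375 to 1.82). mt-Nd1, a complex I subunit encoded next to mt-Tl1, had 0 and 2 with FMRP, 0 and 9 with Hu and 0 on 454, with a P13 ratio of 0.322 (0.0339 to 1.56). Each of these intervals holds 1, and in the P13 lysate all 3 point estimates lay below it. Coding genes with fewer tags went both ways at P13. FMRP and Hu had 4 and 1 tags on mt-Nd2, 3 and 0 on mt-Nd4, 4 and 4 on mt-Nd6, and 0 and 2 on mt-Nd5.

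The other coding genes with tags were mt-Nd5 (9 over the 9 libraries, 4 of them in the P25 monoclonal library), mt-Nd6 (8), mt-Nd2 (7), mt-Nd4 (4) and mt-Atp8 (1). mt-Nd6 is the coding gene of the minus strand, with 4 tags in the P13 FMRP and 4 in the P13 Hu library. The 5 coding genes with no tag were mt-Co2, mt-Co3, mt-Atp6, mt-Nd3 and mt-Nd4l. Antisense tags numbered 3, on mt-Nd5, and 8 tags lay outside genes on the minus strand.

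Large parts of the chromosome carried no tag in any library. The longest tag-free stretch ran from chrM position 7871 to 11123 (3253 nt, mm9) and holds mt-Atp6, mt-Co3, mt-Tg, mt-Nd3, mt-Tr and mt-Nd4l entirely. The next, from 6417 to 7846 (1430 nt), holds mt-Ts1, mt-Td, mt-Co2 and mt-Tk. A stretch of 590 nt from 15423 to 16012 was also free of tags. In total, 5683 positions lay under at least 1 tag. The nuclear genome holds copies of some mitochondrial sequence, and the sources used here do not say how reads that match both were placed, so a stretch without tags does not show that its RNA was absent.

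Most FMRP tags gathered in few windows. Of 50 nt windows on the plus strand, chrM:2701-2750 (mt-Tl1) held 592 FMRP tags, 56.1% of those of the 7 FMRP libraries, and 3 Hu tags. The next were chrM:2651-2700 (end of mt-Rnr2; 73 FMRP and 13 Hu tags), chrM:1851-1900 (mt-Rnr2; 62 and 2), chrM:3851-3900 (mt-Tm; 33 and 17) and chrM:301-350 (mt-Rnr1; 21 and 2, with 17 of the FMRP tags from the P25 polyclonal 454 library). The leading Hu windows were chrM:2201-2250 in mt-Rnr2 with 34 tags (15.8% of Hu tags, 33 of them from P13), then mt-Tm, chrM:2251-2300 (16), chrM:2651-2700 (13) and chrM:1651-1700 (10). The leading window thus held a smaller share of the tags with Hu than with FMRP. All FMRP tags of chrM:2701-2750 came from the Illumina libraries, 72 at P11 and 520 at P13. On 454 the leading window was chrM:301-350, with 29.3% of the 454 tags. Windows were picked as the leading ones of each group, so this difference was not tested.

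Among the 454 libraries, the mitochondrial share did not separate antibodies or ages. It was 0.0624% ± 0.0427 (SD, n = 3) with the monoclonal and 0.172% ± 0.166 (n = 2) with the polyclonal antibody (exact permutation test, two-sided, p = 0.4, smallest possible 0.1). It was 0.186% ± 0.147 (n = 2) at P25 and 0.0533% ± 0.0391 (n = 3) at P14 and P15 (exact permutation p = 0.2). Without the P25 polyclonal library the monoclonal mean was 0.00751 percentage points above the remaining polyclonal library. The 31 tags of the P25 polyclonal library stood for 514 reads, up to 142 in 1 tag, against 5 to 26 reads in the other 454 libraries. Between platforms, with the polyclonal antibody, the shares were 0.172% ± 0.166 on 454 and 0.785% ± 0.688 on Illumina (SD, n = 2 each). The exact permutation p was 0.333, the smallest possible. The unit differs, as each 454 tag had its own start, end and strand, while Illumina tags could share them. With 1 tag per 5′ end on both, the means were 0.166% on 454 and 0.279% on Illumina (exact permutation p = 0.667).

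Nuclear mRNAs for mitochondrial proteins are translated on cytoplasmic ribosomes and give a comparison outside the organelle. In the transcript lists, 340 of 1015 genes tested (33.5%) were called with more FMRP tags and 271 (26.7%) with more Hu tags. The median log2 difference over the tested genes was -0.17. Most genes of the lists had too few tags for the test. The 3 that were tested reached the filter's count in both FMRP libraries and, but for Lars2 in 1 library, in no Hu library, so their calls describe these genes and say nothing of the lists. Of 78 oxidative phosphorylation genes, 51 had an Illumina tag, 2 were tested and both were called higher in FMRP, with a median of 3.63. Of 67 genes of mitochondrial gene expression, 40 had a tag and 1 was tested and higher in FMRP. Of 78 mitochondrial ribosomal protein genes, 38 had a tag, with 49 FMRP and 51 Hu tags in all, and none was tested.

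The 3 called genes were Atp5b and Atp5a1, the catalytic-core subunits of ATP synthase, and Lars2, the mitochondrial leucyl-tRNA synthetase, which charges leucine tRNAs such as mt-Tl1. Atp5b had 20 and 51 tags with FMRP and 1 and 2 with Hu (log2 4.77, SE 0.87; edgeR adjusted p = 0.00273). Atp5a1 had 10 and 22 against 3 and 4 (2.49, SE 0.66; 0.0120), and its call was lost without the P11 Hu library (adjusted p = 0.122) and without the P13 Hu library (0.112). Lars2 had 15 and 50 against 8 and 6 (2.40, SE 0.80; adjusted p = 0.0289). The Lars2 call was lost without the P13 FMRP library (adjusted p = 0.0795), without the P11 Hu library (0.0738) and with 1 tag per 5′ end (0.0532). In the densest 100 nt of Lars2 lay 7 of 15 and 21 of 50 FMRP tags (P11 and P13). With Hu these were 4 of 8 and 3 of 6. The densest stretch need not be the same in each library. Such stretches held 7 of 20, 15 of 51, 1 of 1 and 1 of 2 Atp5b tags in the same order. For Atp5a1 the counts were 2 of 10, 6 of 22, 3 of 3 and 3 of 4.

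Other members of the lists with most tags were not tested, and their counts went both ways. Polg, the mitochondrial DNA polymerase, had 11 and 7 FMRP tags and 0 and 1 Hu tags, and Uqcrc1, a complex III subunit, had 2 and 10 against 0 and 0. Tfam, which packages and transcribes mitochondrial DNA, had 0 and 0 against 7 and 8. Lrpprc, which stabilises mitochondrial mRNAs, had 3 and 7 against 1 and 1, and Grsf1, a protein of mitochondrial RNA granules, had 2 and 3 against 1 and 4. Sdha of complex II had 14 and 8 against 4 and 9, and Ndufa4 had 3 and 3 against 4 and 12. Among ribosomal proteins of the organelle, Mrpl17 had 0 and 1 against 6 and 6, and Mrpl57 had 1 and 2 against 3 and 3. Mrpl1 had 0 and 0 against 2 and 2. Mrpl10 had 0 and 3 against 1 and 1, and Mrpl28 had 2 and 3 against 0 and 0.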

How the data were processed

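Genomic and transcript tag lists of 9 libraries were used. The submitters' processing notes name Novoalign and mm9, with no version. In the 454 lists the deposited value beside a tag is a count of the reads merged into it, going by the values, and on Illumina it is a deposited score that the sources used here do not explain and that was left aside. The authors' gene table was not used. Each line was counted as 1 tag.

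Genes were assigned by tag midpoint and strand, with bounds from a RefSeq table of GRCm38.p6. An mm9 annotation was not used here. Of the FMRP Illumina tags assigned to mt-Tl1, 98.8% lay inside the bounds taken. The assignment by midpoint used the same bounds, so this share is no check of them. That table's coordinates are not printed, and positions given are those of the tags.

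The Illumina libraries were fitted with edgeR 4.0.16 (R 4.3.3; TMM, filterByExpr, quasi-likelihood test, Benjamini-Hochberg adjustment at 0.05), on nuclear windows of 1 kb by strand beside rows for the mitochondrial total, classes or genes, and on transcript tags per gene. DESeq2 1.42.0 was an alternative. The steps were tested on simulated data; there the fit of genomic rows let through more false calls than the adjusted threshold allows, so its calls near 0.05 are weak. Intervals and exact tests came from scipy 1.17.1 and plots from matplotlib 3.10.9, in Python 3.11.15 (pandas 2.3.3, numpy 2.4.6). Transcript tags gave 10339 genes, of which 1504 kept their accession.

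The lysates pair the libraries, as the series text says that each was divided. Deviations from the group means correlated at 0.57 over 537 genomic rows and 0.12 over 1015 genes.

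The members, lists and tests were chosen with earlier results of these data known. Named were both ribosomal RNAs, every mitochondrial gene with at least 10 tags, the 5 leading 50 nt windows of each protein, and up to 5 members with most tags of each nuclear list.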

Additional observations from a re-analysis of the deposited data

How the results depend on the processing

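The mitochondrial total was called with library totals (2.76) and with windows of 5 kb (2.48, adjusted p = 3.12e-04). Leaving out 1 library gave 0.87 to 5.48, called without the P11 FMRP library (4.75); the library left alone in its group is assumed to vary like the other group. It was not called with the other alternatives, at 0.97 with 1 tag per 5′ end, 3.00 with 1 tag per start, end and strand, 2.36 with DESeq2, and 2.67 without a filter. The alternatives without mt-Tl1 and with 1 tag per start, end and strand were chosen after seeing the data. The number of mitochondrial genes called, 1 in the fit reported, was 0 with 1 tag per 5′ end and 0 without a filter, and 0 to 5 when a library was left out. The 5, without the P11 FMRP library, were mt-Rnr1, mt-Rnr2, mt-Tl1, mt-Tm and mt-Tv. Calls in the nuclear lists numbered 3, against 1 without a filter and 1 to 3 with a library left out.

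The direction reversed for mt-Rnr1 (-0.66 to 4.23) and mt-Rnr2 (-0.32 to 5.17) with a library left out, and for ribosomal RNA as a class (-0.36 to 5.03, with -0.03 without the P13 FMRP library). For coding genes it reversed to -0.57 with DESeq2 size factors, -0.58 with DESeq2, -0.15 with library totals, -0.32 without a filter, -0.76 with 1 tag per 5′ end and -0.37 with 5 kb windows, and ranged from -1.86 to 1.73 with a library left out. The class tRNA lost its call with DESeq2 size factors (4.85, adjusted p = 0.0565), without the chromosome 17 window (6.08, 0.0880), without a filter (5.10, 0.914), and with 1 tag per 5′ end (2.62, 0.155). The antibody difference on 454 ranged from -0.227 to 0.00751 percentage points. Over all genomic rows, calls under the alternatives ran from 0 to 218 higher and 0 to 245 lower in FMRP, against 52 and 0. The cause of these changes was not tested.

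Shares of genomic tags moved outside their intervals as follows. With 1 tag per 5′ end they were 0.162% (P11 FMRP Illumina), 0.396% (P13 FMRP) and 0.147% (P13 Hu). Without mt-Tl1 they were 0.133% and 0.511% for FMRP, and by start and end 0.248% and 0.736%. With reads as weights they were 0.00795% (P14 polyclonal), 0.0331% (P15) and 0.0264% (P25 monoclonal). With tags of at least 30 nt the P25 polyclonal share was 0.460%. Of the class shares, 13 moved, each with 1 tag per 5′ end or without mt-Tl1, such as tRNA of P13 FMRP to 31.1% and 19.1%, and 1 plus-strand share moved, to 91.5% with 1 tag per 5′ end (P13 FMRP). The replicate block with the lysate moved the total to 3.23 (adjusted p = 0.424). It ended the call of tRNA as a class and left the calls on mt-Tl1, Atp5b, Atp5a1 and Lars2. The 454 libraries, with 1 to 31 mitochondrial tags, limit any statement on single genes there.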
